A study of Mus musculus with 4 samples.

Results

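Genes of megakaryocytes and platelets were followed in irradiated haematopoietic stem and progenitor cells of mouse bone marrow, with and without necdin. The set was 10 genes chosen by name: Pf4, Vwf, Selp, Treml1, Clu, Itga2b, Gp9, Gp5, Gp6 and Nfe2, out of 18194 genes that the platform annotation names on the array. The cells were sorted as Lin-Sca-1+c-Kit+ (LSK), the marrow fraction that holds the stem cells and the earliest progenitors. All mice were C57BL/6, had been reconstituted with fetal liver cells and had received a sublethal irradiation of 6.5 Gy. In 1 group the fetal liver cells were necdin null, and in the other they were wild type, with 2 arrays in each group and no unirradiated group. The part of the necdin gene Ndn that was deleted, the age of the mice, the cells that the hosts retained, the time from irradiation to sorting and any pooling of animals are not stated in the sources used here. No label names separate animals, so a p-value here speaks of the spread among 4 arrays. Whether that is the spread between animals is not stated. Arrays of the same group differed in sex-linked genes, as given below.

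Megakaryocytes are the large marrow cells that shed platelets. Some long-term stem cells already carry RNA of this lineage, and such platelet-primed stem cells are marked by Vwf, Itga2b, Pf4, Clu and Selp. In the platelet itself, adhesion receptors (glycoproteins GPIb-IX-V and GPVI and the integrin made by Itga2b and Itgb3) catch von Willebrand factor, collagen and fibrinogen, and alpha granules release stored cargo such as Pf4. The transcription factor NF-E2 drives the last steps of platelet formation.

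Values are MAS5 signals, a linear brightness per probe set that the authors scaled on each array. Differences are of log2(signal + 3.80), necdin null minus wild type unless said otherwise, which understates the change of low genes. A probe set counted as measured above a filter of log2 5.09, a signal of about 30.3. The 10 genes have 15 probe sets, of which 14 lay above the filter; 8 genes have 1 probe set, Selp has 3 and Clu has 4. The brightest is the main one.

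The groups and arrays bear the following marks. Ndn had signals of 55.4 and 105 in necdin null and 253 and 255 in wild type cells. Kit, the gene of the c-Kit receptor used for sorting, had 6049 and 3744 in necdin null and 6617 and 3976 in wild type cells; Ly6a, which encodes Sca-1, was not analysed here. Across probe sets, pairs of arrays had rank correlations of 0.89 to 0.92. Necdin null replicate 2 stood apart in its Gapdh 3' to 5' ratio, 15.8 against 9.96 to 11.7 elsewhere, and 37.4% of its signal lay in the brightest 1% of probe sets, where the other arrays had 28.9% to 30.6%. Neutrophil markers (15 of 16 above the filter) were summed to 103125 and 212698 in necdin null and to 79074 and 148692 in wild type cells, higher on the replicate 2 array in both groups. None of these markers was at 0; the dimmest, Itgam, had at most 44.8. The monocyte and macrophage list (9 of 12 above the filter) ran from 9595 to 17163 in necdin null and from 7664 to 15658 in wild type cells, and the B lineage list (10 of 12) from 1519 to 1927 and from 1380 to 3193. The arrays also differed in sex-linked genes, which were looked at after a few of them were called on leaving out an array. Xist, the RNA of the inactive X chromosome, was low on necdin null replicate 2 (76.8, beside 4841 to 9930 elsewhere). The Y-linked gene Eif2s3y was low on wild type replicate 1 (32.6, beside 1974 to 2987 elsewhere). Necdin null replicate 1 (Xist 4841, Eif2s3y 2273) and wild type replicate 2 (Xist 7182, Eif2s3y 1974) had signals of both. The part of the sex of the cells in the platelet gene values was not tested. Bulk arrays cannot tell fewer cells of a type from less RNA per cell.

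None of the 10 platelet genes was called between necdin null and wild type cells (limma, Benjamini-Hochberg adjusted over the 12680 genes above the filter, threshold 0.05). The share called among all genes was 0% as well. Ndn itself, with a difference of -1.68, was not called either (limma adjusted p = 0.999). At an unadjusted p under 0.05, 0 of the 9 platelet genes above the filter were found, beside 383 of all genes (3.02%). Leaving out wild type replicate 1 gave 1 of the 9 beside 4.68% of all genes, and leaving out wild type replicate 2 gave 2 beside 4.26%. Of the 10 genes, 5 had a higher mean and 5 a lower mean in necdin null cells; among all genes above the filter 45.9% were higher. The median difference was -0.030, beside -0.022 over all 18194 genes. It was 0.0077 with quantile normalization and 0.023 with cyclic loess, so it had no fixed sign, and 0.15 without necdin null replicate 2, the array with the high Gapdh ratio. None of the 9 platelet genes above the filter differed 2-fold, a size reached by 4.52% of all genes above it. The 2 groups overlapped for 8 of the 10. Gp9 was higher on both necdin null arrays, as were 12.8% of all genes above the filter. Gp6, itself under the filter, was lower on both, as were 3065 of all 18194 genes and 17.7% of those above the filter. The groups lay apart for 30.5% of the genes above the filter in all.

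**Figure D1:**
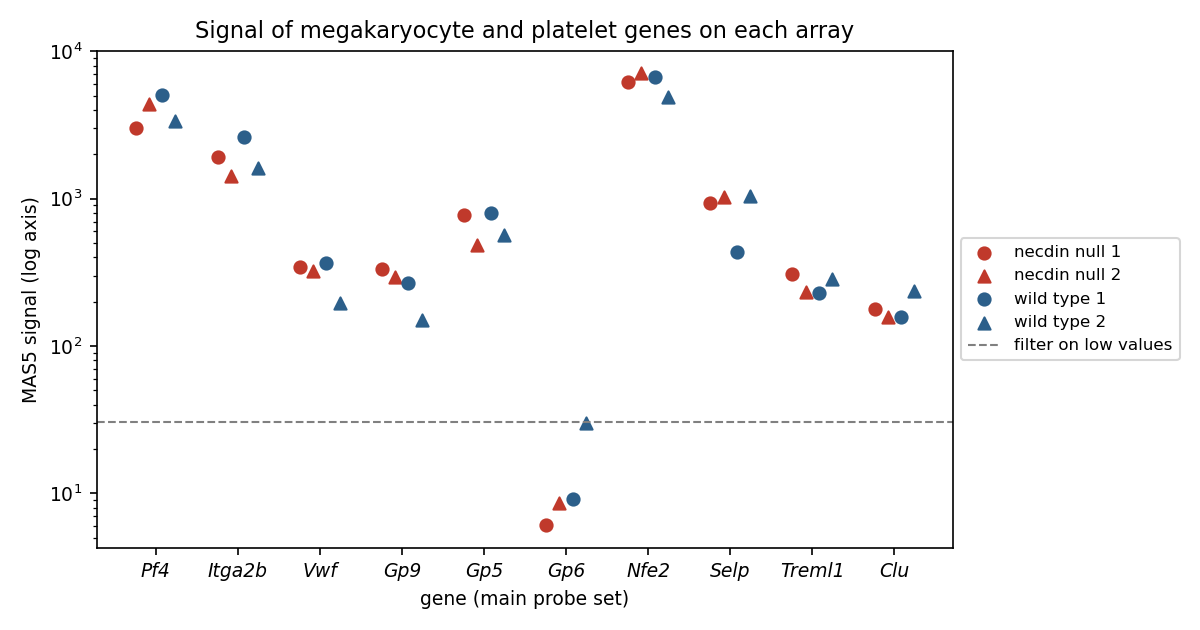
MAS5 signal on a log axis for the main probe set of each of the 10 genes, 1 point per array (red necdin null, blue wild type; circles replicate 1, triangles replicate 2), with the filter on low values dashed. Points of the 2 groups mix for 8 genes; both red points lie above both blue points for Gp9 and below them for Gp6, which is at or under the filter.

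Among the genes of granule cargo, Pf4 encodes a chemokine stored in alpha granules and is a classic megakaryocyte marker. Its signals were 3001 and 4364 in necdin null and 5075 and 3384 in wild type cells. The highest and the second lowest value were both wild type, so the groups overlapped. The means were 3682 ± 964 and 4230 ± 1196 (SD, n = 2 each), a log2 difference of -0.20 with a 95% interval from -0.78 to 0.39. The replicate 1 arrays alone gave -0.76 and the replicate 2 arrays alone 0.37, so its direction turned with the pair of arrays. Leaving out necdin null replicate 1 gave 0.074, and leaving out wild type replicate 1 gave 0.097.

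Vwf encodes von Willebrand factor, the adhesive protein that tethers platelets, which endothelial cells also make. It had 346 and 322 in necdin null and 366 and 196 in wild type cells. The low value of wild type replicate 2 set the difference of 0.31 (95% interval -0.55 to 1.17); without that array it was -0.13. Endothelial markers, 12 of 15 above the filter, were summed to 4739 and 4272 in necdin null and 4795 and 4968 in wild type cells. They ranged from Sele, the endothelial selectin, at 7.46 to 16.9 on the 4 arrays, to Egfl7, a secreted endothelial factor, at 2074 to 2579. Robo4, an endothelial guidance receptor, had 261 and 249 against 287 and 182, with wild type replicate 2 lowest as for Vwf. The list as a whole went the other way. Its sum and its median deviation from the mean of the 4 arrays (0.19) were highest on wild type replicate 2. The part of endothelial RNA in the Vwf values was not tested.

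Selp encodes P-selectin, which moves from granules to the surface of activated platelets and endothelium and binds leukocytes. Its main probe set, 1440173_x_at, had 940.0 and 1029.9 in necdin null and 438 and 1046 in wild type cells. Wild type replicate 1 alone was low, and the other 3 arrays lay close together. The log2 difference was 0.54 (95% interval -0.31 to 1.38), with 1.09 for the replicate 1 arrays alone and -0.022 for the replicate 2 arrays alone. Leaving out wild type replicate 1 gave -0.087, and without the other wild type array it was 1.16.

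The other Selp probe sets gave a different picture of the spread. Probe set 1420558_at had 822 and 819.7 against 567 and 689.6, with the groups apart and a difference of 0.39. Probe set 1449906_at had 369 and 272 against 189 and 505, with the wild type arrays on both sides and a difference of 0.032. Wild type replicate 1 was the lowest array on all 3. Over all probe sets above the filter, the limma adjusted p was 1.00 for each of the 3.

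Treml1 encodes TLT-1, a receptor of the alpha granule membrane that is made in megakaryocytes and platelets. Its signals were 310.0 and 232 in necdin null and 230.3 and 284 in wild type cells. The ranges nearly coincided, with a difference of 0.069 (95% interval -0.73 to 0.86), which was -0.012 with median centring of the arrays. Clu encodes clusterin, a secreted chaperone found in platelet granules and in stem cells biased to platelets. Its main probe set, 1454849_x_at, had 177 and 157 in necdin null and 158 and 234 in wild type cells, with wild type replicate 2 highest. The difference was -0.20 (95% interval -1.12 to 0.71), and 0.074 without wild type replicate 2. The other Clu probe sets lay between -0.64 and -0.080, so the differences of all 4 were below 0 while the groups overlapped on each. Wild type replicate 2 was the highest array on all 4.

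**Figure D2:**
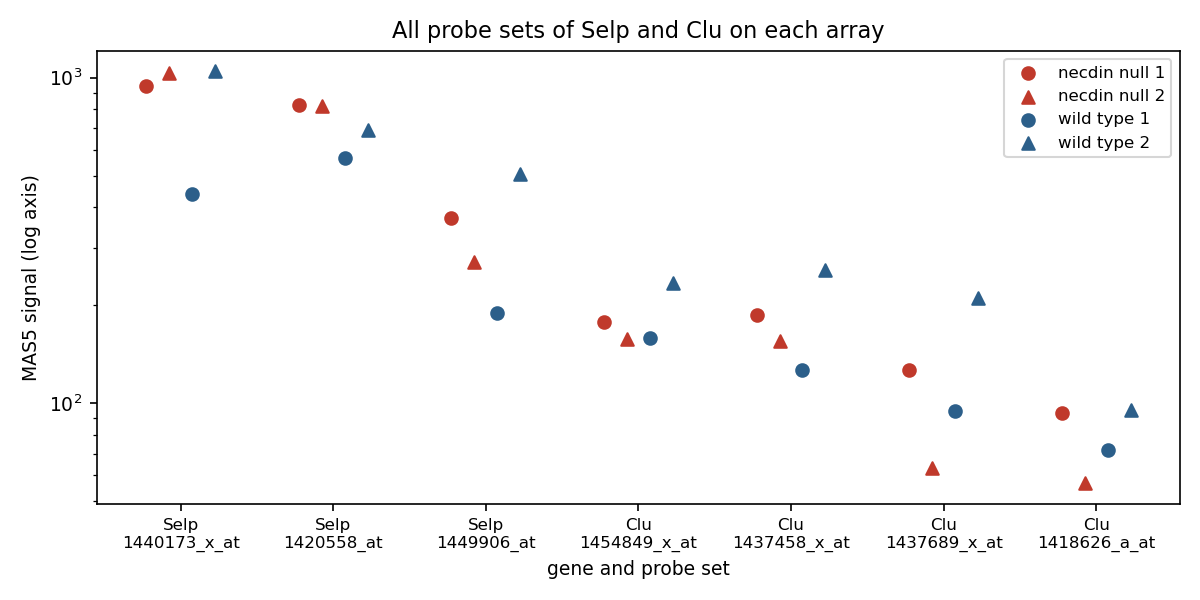
MAS5 signal on a log axis for the 3 Selp and 4 Clu probe sets, 1 point per array (red necdin null, blue wild type; circles replicate 1, triangles replicate 2). Wild type replicate 1 is lowest on each Selp probe set and wild type replicate 2 highest on each Clu probe set; only 1420558_at has both red points above both blue points.

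Among the adhesion receptors, Itga2b encodes CD41, the alpha subunit of the platelet fibrinogen receptor. It had 1921 and 1435 in necdin null and 2615 and 1615 in wild type cells. Each group had its higher value on the replicate 1 array. The difference was -0.31 (95% interval -0.91 to 0.30). Leaving out wild type replicate 1 gave 0.040, and leaving out wild type replicate 2 gave -0.65.

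Gp9 and Gp5 encode 2 of the 4 subunits of GPIb-IX-V, the receptor for von Willebrand factor. Gp9 had 335 and 294 in necdin null and 269.8 and 149 in wild type cells, the only platelet gene above the filter whose groups did not overlap. The means were 314 ± 28.8 and 209.6 ± 85.2 (SD, n = 2 each) and the difference 0.63, with a 95% interval from -0.26 to 1.52 (limma adjusted p = 1.00). It ranged from 0.21, without wild type replicate 2, to 1.05, without wild type replicate 1. Gp5, in contrast, had 772 and 484 in necdin null and 794 and 564 in wild type cells, with a difference of -0.13 (95% interval -0.83 to 0.57). The replicate 1 arrays of both groups nearly matched, and so did the replicate 2 arrays. Its sign turned to 0.21 without necdin null replicate 2 and to 0.12 without wild type replicate 1. The partner subunit Gp1bb had 198 and 318 against 179.8 and 209, a difference of 0.36, and Gp1ba was not analysed here.

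Gp6 encodes GPVI, the platelet collagen receptor. Its only probe set had 6.07 and 8.65 in necdin null and 9.08 and 29.8 in wild type cells, all at or under the filter signal of 30.3, so it was not tested and its difference of -0.91 is between low signals. It was -1.09 with a pseudocount of 1 and -0.36 with 32. Fcer1g, the signalling chain that GPVI shares with Fc receptors of other blood cells, had 562 and 374 against 412 and 890.4, with the wild type values on both sides.

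Nfe2 encodes the p45 subunit of NF-E2. Its signals were 6163 and 7099 in necdin null and 6737 and 4920.3 in wild type cells. Wild type replicate 2 was lowest, and the other wild type array lay between the necdin null arrays. The difference was 0.20 (95% interval -0.29 to 0.69), and -0.026 without wild type replicate 2. Its small Maf partners were close as well: Mafg had 619 and 579 against 488 and 498, a difference of 0.28 with the groups apart, and Mafk had -0.066. The limma adjusted p of the 9 tested platelet genes was 1.00 in each case.

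**Figure D3:**
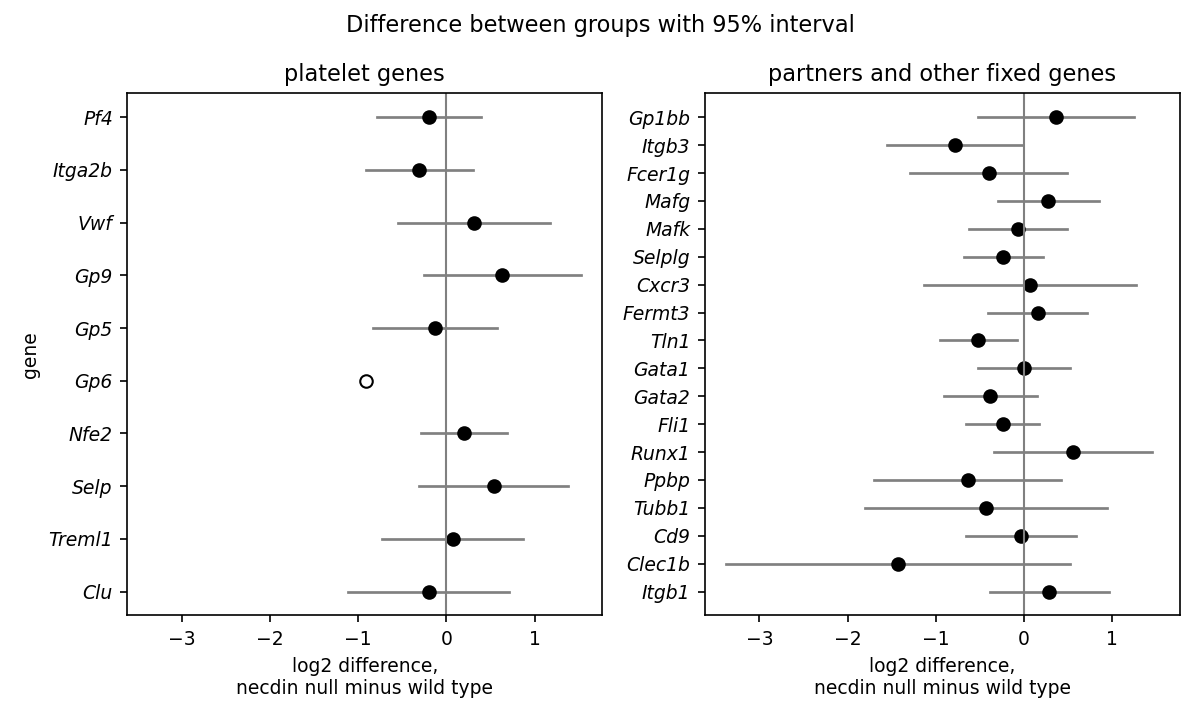
Log2 difference, necdin null minus wild type, with its 95% interval from limma, for the 10 platelet genes (left) and for their partners and other genes fixed by name, Ndn left out (right); the open point is Gp6, which lay under the filter and was not tested. Each tested interval of the platelet genes crosses 0, and at right those of Itgb3 and Tln1 do not.

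The wider program was read from lists of 115 genes beside these 10, covering their partners, platelet receptors, granule proteins, transcription factors, and cytoskeleton and signalling. Of these, 104 were on the array and 94 above the filter. None was called between the groups with limma. By their means 46 of 104 were higher and 58 lower, the median being -0.054, and the groups lay apart for 13 higher and 15 lower genes of the 104, beside 12.8% and 17.7% of all genes above the filter. Itgb3, Tln1 and Dock8 had an unadjusted p under 0.05, all 3 lower in necdin null cells; 3 of 94 is close to the 3.02% of all genes. Leaving out an array moved this count, and also the share of all genes, but not in step. It was 12 beside 4.68% (wild type replicate 1), 11 beside 7.74% (necdin null replicate 1), 4 beside 4.26% (wild type replicate 2) and 1 beside 1.82% (necdin null replicate 2).

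Itgb3 encodes the beta subunit that pairs with the Itga2b product. It had 436 and 257 in necdin null and 501 and 672 in wild type cells. The groups lay apart, with a difference of -0.79 (standard error 0.34). Tln1 encodes talin, which switches that integrin on from inside the cell, and had 1561 and 1499 against 2372 and 2022, a difference of -0.52 (standard error 0.19). Dock8, a guanine nucleotide exchange factor of blood cells, had 536 and 350 against 728 and 903, a difference of -0.90 (standard error 0.29). For all 3 the limma adjusted p over all genes was 1.00. Fermt3, which encodes kindlin-3 and acts with talin, had 17518 and 25641 against 19737 and 18355, so the groups overlapped.

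By list, 9 of 21 platelet receptors, 9 of 20 granule proteins, 8 of 23 transcription factors, 19 of 39 cytoskeleton and signalling genes and 4 of 9 partners were higher, with medians between -0.071 and -0.023. Of the transcription factors that set up the lineage, Gata1 had -0.0027, Gata2 -0.38, Fli1 -0.24 with the groups apart, and Runx1 0.56. Clec1b, the podoplanin receptor of platelets, had 88.3 and 17.6 in necdin null and 56.9 and 229.6 in wild type cells, a wide spread within both groups. Tubb1, the tubulin of the platelet marginal band, had 192 and 97.5 against 103 and 333, and Ppbp, another alpha granule chemokine, 199 and 92.5 against 196 and 232. In these 3 the necdin null replicate 2 array was lowest and the wild type replicate 2 array highest. Selplg, the ligand of P-selectin on leukocytes, had -0.23, Cxcr3, a receptor that binds the Pf4 product, 0.067, and the tetraspanin gene Cd9 -0.036.

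The arrays of a group can also be set against each other. Within necdin null cells, 0 of the 10 platelet genes differed 2-fold between replicate 2 and replicate 1, where 10% of all genes above the filter did. Within wild type cells 2 did, Selp (1.25) and Gp6 (1.38), both higher on replicate 2, beside 11.2% of all genes above the filter. The shares in this paragraph are of genes above the filter, which Gp6 did not reach. Over all 18194 genes, 3605 differed 2-fold within necdin null and 3704 within wild type cells. With 1 array on each side these differences have no replicate check. Replicate 2 was lower for 6 of 10 genes within necdin null cells and for 6 of 10 within wild type cells, beside 52.8% and 48.9% of all genes. Itga2b, Vwf, Gp9 and Gp5 were lower on replicate 2 in both groups, as were 29% of all genes, and Selp and Gp6 were higher in both, as were 27.3%. The remaining 4, Pf4, Nfe2, Treml1 and Clu, went opposite ways in the 2 groups, as did 43.6% of all genes.

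Sequences just upstream of 3 genes that were lower on replicate 2 in both groups (Itga2b, Gp9 and Gp5) are shown with that of Selp. By its main probe set only, Selp was higher on replicate 2 in both groups. Each sequence is the 250 bases before the annotated gene start, from RefSeq on build GRCm38.p6. Such a sequence was found for 7 of the 10 genes (not Vwf, Nfe2 or Clu). Each is written 5′ to 3′ on the gene's own strand. Capitals mark, on either strand, the GATA motif spelled AGATAA, the ETS motif spelled AGGAAG or the RUNX motif spelled TGTGGT.
Itga2b, chr11:102469884-102470133, minus strand: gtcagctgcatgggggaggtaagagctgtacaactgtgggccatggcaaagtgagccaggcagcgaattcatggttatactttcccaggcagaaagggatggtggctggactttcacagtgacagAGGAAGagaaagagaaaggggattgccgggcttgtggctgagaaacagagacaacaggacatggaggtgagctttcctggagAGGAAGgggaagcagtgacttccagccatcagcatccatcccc
Gp9, chr6:87777820-87778069, plus strand: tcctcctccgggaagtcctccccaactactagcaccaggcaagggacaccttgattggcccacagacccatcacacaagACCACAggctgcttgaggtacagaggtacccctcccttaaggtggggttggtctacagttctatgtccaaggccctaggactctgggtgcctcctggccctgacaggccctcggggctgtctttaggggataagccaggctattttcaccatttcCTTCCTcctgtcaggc
Gp5, chr16:30310782-30311031, minus strand: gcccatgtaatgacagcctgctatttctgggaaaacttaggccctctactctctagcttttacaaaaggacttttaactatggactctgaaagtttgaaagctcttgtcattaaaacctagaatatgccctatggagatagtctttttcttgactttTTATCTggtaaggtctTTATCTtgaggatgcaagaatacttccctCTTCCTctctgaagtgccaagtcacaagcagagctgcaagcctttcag
Selp, chr1:164115014-164115263, plus strand: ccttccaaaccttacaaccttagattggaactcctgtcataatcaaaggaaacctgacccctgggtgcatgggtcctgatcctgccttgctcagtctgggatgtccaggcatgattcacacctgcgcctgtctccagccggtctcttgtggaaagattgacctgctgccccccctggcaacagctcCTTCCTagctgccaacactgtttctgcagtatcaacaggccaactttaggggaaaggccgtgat
The GATA motif stood in 2 of the 7 windows of platelet genes (2 times before Gp5, and before Gp6, not printed), and 9.99% of all 32851 such windows hold it. The ETS motif stood in 5 of the 7, the 4 printed ones and that of Pf4, and 29.5% of all windows hold it. The RUNX motif stood in 1 of the 7, that of Gp9, and in 14.05% of all windows. TGAGTCA, the NF-E2 motif, stood in none of the 7 and in 4.46% of all. No overlap between motifs was found in the 4 windows. A match is a run of letters and not a measured site.

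**Figure D4:**
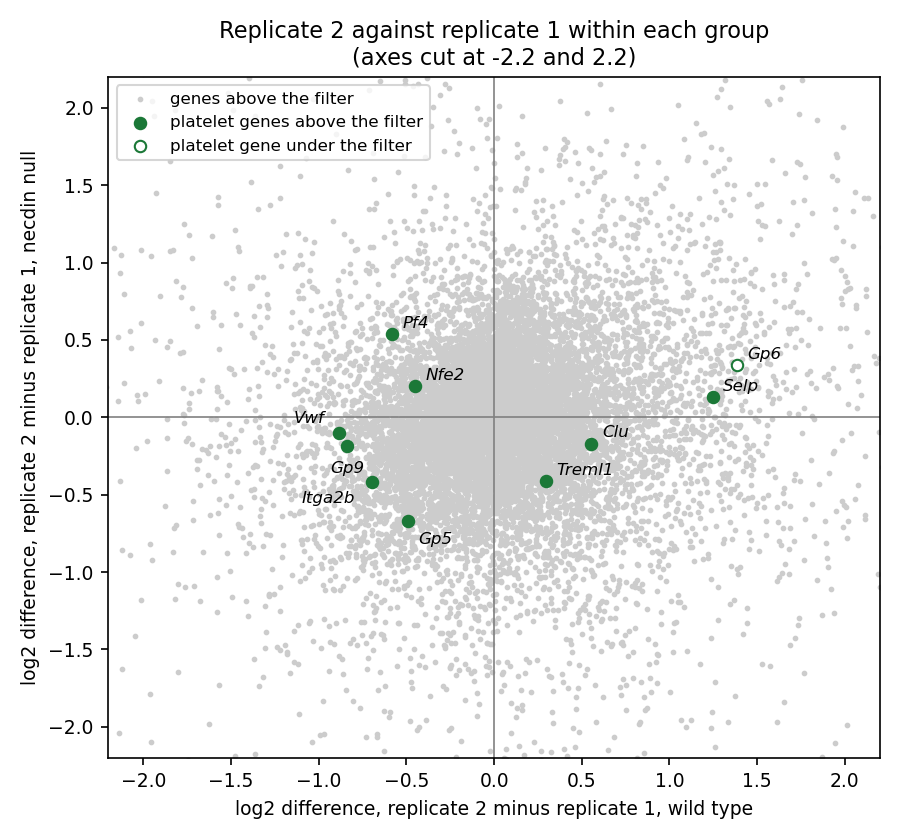
Log2 difference, replicate 2 minus replicate 1, within wild type (horizontal) and within necdin null (vertical), for the 10 platelet genes (green, Gp6 open) over all genes above the filter (grey); axes end at -2.2 and 2.2. Itga2b, Vwf, Gp9 and Gp5 lie at lower left, Selp and Gp6 at upper right, and Pf4, Nfe2, Treml1 and Clu where the signs are opposite.

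For Itga2b the difference between replicate 2 and replicate 1 was -0.42 within necdin null and -0.69 within wild type cells, and both replicate 2 arrays lay below both replicate 1 arrays. Gp5 had -0.67 and -0.49, again with the numbers apart. Vwf had -0.10 and -0.88 and Gp9 -0.19 and -0.84, so their falls were mainly between the wild type arrays. Selp had 0.13 and 1.25 with its main probe set, -0.0040 and 0.28 with 1420558_at, and -0.44 and 1.40 with 1449906_at, so its sign within necdin null cells depended on the probe set. Pf4 had 0.54 and -0.58.

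Set 2 against 2 by replicate number with limma, none of the 9 platelet genes was called, while 0.00789% of all genes were, which is 1 gene, Rsrp1, named after its value was seen. Itga2b (mean difference -0.56, standard error 0.20, limma adjusted p = 0.50) and Gp5 (-0.58, standard error 0.22, limma adjusted p = 0.51) had an unadjusted p under 0.05. That is 2 of 9, beside 8.82% of all genes, of which 5.13% were lower and 3.7% higher on replicate 2. It was 3 of 9 without necdin null replicate 2, beside 12.1% of all genes, and 0 of 9 without wild type replicate 1, beside 4.9%. Without necdin null replicate 1, Selp was called as higher on replicate 2 by its main probe set (difference 1.24), and many other genes were called too. The lone array there was wild type replicate 1. It was set against the replicate 2 arrays of both genotypes and taken to vary like them. The numbers lay apart for 4 of the 10 genes, Itga2b, Vwf, Gp5 and Selp, beside 40.6% of all genes.

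In the wider lists, 15 of 94 genes had an unadjusted p under 0.05 by number, beside 8.82% of all genes, and 11 of them were lower on replicate 2, beside 5.13%. The count was 5 without wild type replicate 1 (4.9% of all genes), 25 without necdin null replicate 2 (12.1%) and 29 without wild type replicate 2 (16.8%). It was 9 with the mean of all probe sets (7.89%), 7 with the second brightest one (7.6%) and 9 with no intensity trend (7.48%). Mmrn1, the alpha granule protein multimerin, had 1438 and 422 in necdin null and 1545 and 976 in wild type cells, lower on replicate 2 in both. F11r, a junctional adhesion molecule of platelets, had 1176 and 816 against 1406 and 738. Stxbp5, which acts in granule release, had 901 and 558 against 1095 and 395, and the cation channel gene Trpc6 264 and 118 against 389 and 157. The stem cell transcription factor gene Mecom had 1963 and 1444 against 2686 and 1527. Of the 15 genes, 4 went the other way. F13a1, coagulation factor XIII, which monocytes also make, was among them, with 603 and 954 against 601 and 1618. So were Aldh1a7, with 83.4 and 259 against 59.5 and 150, and Cdkn1a, with 273 and 528 against 255 and 354. None of the genes named here passed over all genes (limma adjusted p between 0.35 and 0.56).

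These differences by number ran beside differences in other lists. The LSK gate list (9 of 9 above the filter) had a median of -0.24 within necdin null and -0.50 within wild type cells. Of its 9 genes, 6 were lower on replicate 2 in both groups and 1 was higher in both. Slamf1, a surface marker of long-term stem cells, had 338 and 233 against 397 and 74.4. Flt3, the gene higher in both, had 3254 and 4288 against 2845 and 4614. The neutrophil list had a median of 1.25 in both groups, and the monocyte and macrophage list 0.68 and 2.00. The medians of the 10 platelet genes were -0.14 and -0.47. The part of stem cell content, other cell types or the RNA of necdin null replicate 2 in the platelet gene values was not tested.

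**Figure D5:**
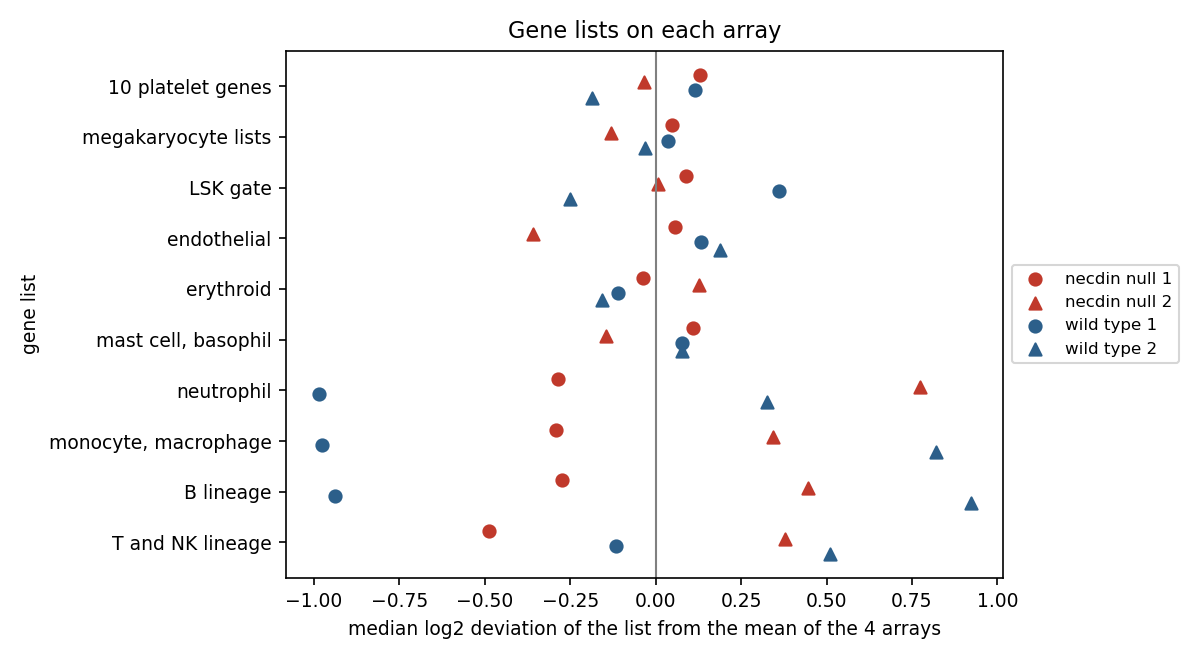
Median log2 deviation of each gene list from the mean of the 4 arrays, 1 point per array (red necdin null, blue wild type; circles replicate 1, triangles replicate 2). The 10 platelet genes lie between -0.19 and 0.13 with the groups mixed, while the neutrophil list runs from -0.99 to 0.77 with both replicate 2 arrays at right.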

How the data were processed

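Total RNA of sorted LSK cells was labelled as biotinylated cRNA for Affymetrix arrays, per the labels' protocols. The deposited table holds an intensity for each of 45101 probe sets on 4 arrays, made by the authors with MAS5 per the submitters' processing notes (version not given in the sources used here). Their mean after trimming 2% at each end was 500.004 on each array.

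Names came from the platform annotation: 34958 probe sets had 1 symbol, 932 several and 9211 none, and only the first were named. Values were log2(signal + 3.80), the pseudocount being the 10th percentile. Each gene was its brightest probe set, and the 12680 genes from the 40th percentile upward were fitted with limma 3.58.1 in R 4.3.3 (trend, two-sided, Benjamini-Hochberg, threshold 0.05). The fit was tried on simulated arrays with independent noise, which held no differences by replicate number, sex or RNA quality. The share of changes it recovered is not given here. An exact two-sided permutation test of 2 against 2 cannot go below 0.333. Genes and lists were chosen with earlier results of these data known. Named genes were the 10, their partners, 10 others and Ndn by name, and in each list up to 3 genes a direction by smallest unadjusted p under 0.05 with groups apart or by largest difference between numbers. Cell type markers such as Robo4 were named outside this rule. Deviations of same-numbered arrays from their group means correlated at 0.11 across genes, with 2 pairs of arrays, and numbers were not taken as pairs. That value cannot show that the arrays share no effect of number. Alternatives changed the pseudocount, filter, normalization, trend and probe sets, added a block or left out an array.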

Additional observations from a re-analysis of the deposited data

Results flagged for a closer look

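For 4 of the 10 platelet genes the difference between replicate 2 and replicate 1 had opposite signs in the 2 groups. Pf4 had 0.54 within necdin null and -0.58 within wild type cells. Nfe2 had 0.20 and -0.45. Treml1 had -0.41 and 0.30, and Clu -0.17 and 0.56. Each is 1 array against 1 array, the difference between the groups was not tested, and 43.6% of all genes above the filter also had opposite signs.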

How the results depend on the processing

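With 2 arrays a group, precision was set by their number, and Gp6 gave no usable signal. No platelet gene and no gene of the wider lists was called between the groups under any alternative run, and the limma adjusted p of the 9 tested genes stayed at 0.79 or higher. The count over all genes, 0, was 3 with the replicate block (Ddit4, Gas2l3 and Tcl1b3), 0 with quantile normalization and that block, which was chosen after seeing the data, and 0 to 4 when leaving out 1 array, the sex-linked genes Xist, Eif2s3y and Kdm5d among them. The block called none of the platelet genes. The platelet genes' median ranged from -0.078 to 0.15 when leaving out 1 array. By replicate number, Selp was the only platelet gene called when leaving out 1 array, namely necdin null replicate 1. Many other genes were called in that fit too. The Selp difference by number ranged from 0.14 to 1.24 when leaving out 1 array. Platelet genes past 2-fold within wild type cells, 2, were 1 with pseudocount 16 or 32, the mean of all probe sets or the second brightest probe set, and 4 with median centring. With a limit of 1.5-fold they were 5, and 1 within necdin null cells. With 3-fold they were 0 within wild type cells. Median centring moves all genes of an array by the same amount. The shares of all genes under these settings are not given here, so these counts show nothing particular to the platelet genes. Direction turned for Treml1 with median centring (-0.012). Leaving out 1 array turned 8 genes, with ranges of -0.49 to 0.097 for Pf4, -0.14 to 0.27 for Treml1, -0.46 to 0.21 for Gp5, -0.65 to 0.040 for Itga2b, -0.087 to 1.16 for Selp, -0.13 to 0.75 for Vwf, -0.026 to 0.43 for Nfe2 and -0.48 to 0.074 for Clu. Gp9 stayed higher and Gp6 lower in all 17 alternatives run. Both have 1 probe set and groups that lay apart, so only a change of normalization could have turned either sign.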
